A study of Homo sapiens with 7 samples.

Results

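Metallothioneins and the genes of the cellular zinc response were followed in HEK-293 cells, a human embryonic kidney cell line, under acidosis or with inhibition of SR protein kinases. The set was chosen by name, with earlier results of these data known, and holds 8 of the 19978 genes in the count table. These are 6 metallothionein genes (MT1E, MT1F, MT1G, MT1M, MT1X and MT2A), the transcription factor gene MTF1 and the zinc exporter gene SLC30A1. The control group (2 samples) was kept for 48 h at pH 7.4 with the solvent DMSO. The acidosis group (3 samples) was kept for 48 h in medium brought to pH 6.6 with hydrochloric acid, also with DMSO. The SRPIN340 group (2 samples) received 10 µM SRPIN340, an inhibitor of the SRPK kinases that phosphorylate SR splicing factors, in DMSO at pH 7.4 for 48 h. All 7 samples thus shared the cell line, the solvent and the time, and the labels name no added metal.

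Metallothioneins are small cysteine-rich proteins that bind zinc and copper and buffer the free metal in the cell. Their genes lie side by side in a single cluster and are switched on by the zinc-sensing factor MTF1, which binds metal response elements in their promoters when cytosolic zinc rises. SLC30A1 (also called ZnT1) sits in the plasma membrane, pumps zinc out of the cell and is another known target of MTF1, so the mRNA levels of metallothioneins and SLC30A1 usually rise and fall together with zinc. Glucocorticoids are a separate known inducer of MT2A.

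The metallothionein genes were annotated on chromosome 16 of GRCh38 (GENCODE). MT2A (ENSG00000125148.7) covers chr16:56608584-56609497 on the plus strand, MT1F (ENSG00000198417.7) covers chr16:56657731-56660698 on the plus strand, and MT1X (ENSG00000187193.9) covers chr16:56682470-56684196 on the plus strand. Between the starts of MT2A and MT1X, which are 73.9 kb apart, lie 7 other metallothionein genes, among them MT1E, MT1M and MT1G. On chromosome 1, MTF1 (ENSG00000188786.10) covers chr1:37809574-37859592 with 11 exons and SLC30A1 (ENSG00000170385.10) covers chr1:211571568-211579161 with 2 exons, both on the minus strand.

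The coding sequences of the detected metallothioneins are printed because their likeness bears on how reads could be assigned. Capitals mark the bases of MT1X and MT1F that differ from MT2A (GENCODE canonical transcripts, GRCh38, each with its stop codon).
MT2A: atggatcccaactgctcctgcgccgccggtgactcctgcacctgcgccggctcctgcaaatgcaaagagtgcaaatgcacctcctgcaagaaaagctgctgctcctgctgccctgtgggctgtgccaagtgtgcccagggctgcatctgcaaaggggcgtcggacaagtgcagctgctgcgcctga
MT1X: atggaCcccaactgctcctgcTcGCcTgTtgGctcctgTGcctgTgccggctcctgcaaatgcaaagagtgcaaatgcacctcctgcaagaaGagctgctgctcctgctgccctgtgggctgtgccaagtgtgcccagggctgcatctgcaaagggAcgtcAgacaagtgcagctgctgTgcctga
MT1F: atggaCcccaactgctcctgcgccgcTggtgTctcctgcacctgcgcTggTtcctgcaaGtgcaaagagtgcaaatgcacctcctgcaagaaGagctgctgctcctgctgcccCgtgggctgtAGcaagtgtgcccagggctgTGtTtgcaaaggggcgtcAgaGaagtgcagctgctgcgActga
Of the 186 coding bases, MT1X differed from MT2A at 14 (92.5% identity), and MT1F differed from MT2A at 16 (91.4% identity). All 3 sequences held 20 cysteine codons among 61 codons. Of the 31-base words in the canonical transcript, 31.5% for MT2A, 54.0% for MT1X and 13.9% for MT1F also occurred in a transcript of another gene. For MT1X, 136 of its 202 shared words lay in 1 other gene, ENSG00000259827. The shares were 2.15% for MTF1 and 0 for SLC30A1. For MT2A, 59 of its 117 shared words lay in MT2P1. The counts of MT2A, MT1X and MT1F are therefore less certain than those of MTF1 and SLC30A1. The summed metallothionein level is given as well, but it does not cover reads shared with genes outside the set, such as these 2.

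Promoter sequence was taken from the RefSeq table (GRCh38.p14), in which 4 of the 8 genes had an entry, and the 250 bases before the start of transcription were searched on both strands for the metal response element core in its spellings TGCACNC and TGCGCNC. The windows with a match are printed on the strand of the gene, from MT2A at chr16:56608334-56608583, MT1X at chr16:56682220-56682469 and SLC30A1 at chr1:211579162-211579411 (minus strand), with capitals on each match.
MT2A: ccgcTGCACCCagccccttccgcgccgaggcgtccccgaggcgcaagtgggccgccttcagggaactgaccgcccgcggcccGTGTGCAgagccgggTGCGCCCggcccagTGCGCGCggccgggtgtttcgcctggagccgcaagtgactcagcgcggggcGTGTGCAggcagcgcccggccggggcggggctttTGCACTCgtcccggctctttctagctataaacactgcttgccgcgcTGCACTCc
MT1X: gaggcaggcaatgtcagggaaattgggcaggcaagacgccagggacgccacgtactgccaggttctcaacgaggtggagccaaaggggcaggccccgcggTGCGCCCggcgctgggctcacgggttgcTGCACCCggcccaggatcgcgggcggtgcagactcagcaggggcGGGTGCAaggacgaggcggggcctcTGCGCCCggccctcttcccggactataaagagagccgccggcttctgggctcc
SLC30A1: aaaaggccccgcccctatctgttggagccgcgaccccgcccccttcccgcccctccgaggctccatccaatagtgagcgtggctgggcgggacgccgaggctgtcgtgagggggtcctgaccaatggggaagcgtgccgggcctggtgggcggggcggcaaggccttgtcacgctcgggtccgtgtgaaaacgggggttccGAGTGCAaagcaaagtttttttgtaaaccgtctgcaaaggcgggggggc
MT2A held 7 matches, MT1X held 4 and SLC30A1 held 1, none of which overlapped another. Among all 35116 promoters in the table, 24.8% held at least 1 match, 0.370% held at least 4 and 0.0313% held at least 7. These letters were not found in the MTF1 window. The TATAAA letters occurred on the strand of the gene in the MT2A and MT1X windows and in 6.80% of all windows. The promoters of MT1E, MT1F, MT1G and MT1M were not printed.

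**Figure D1:**
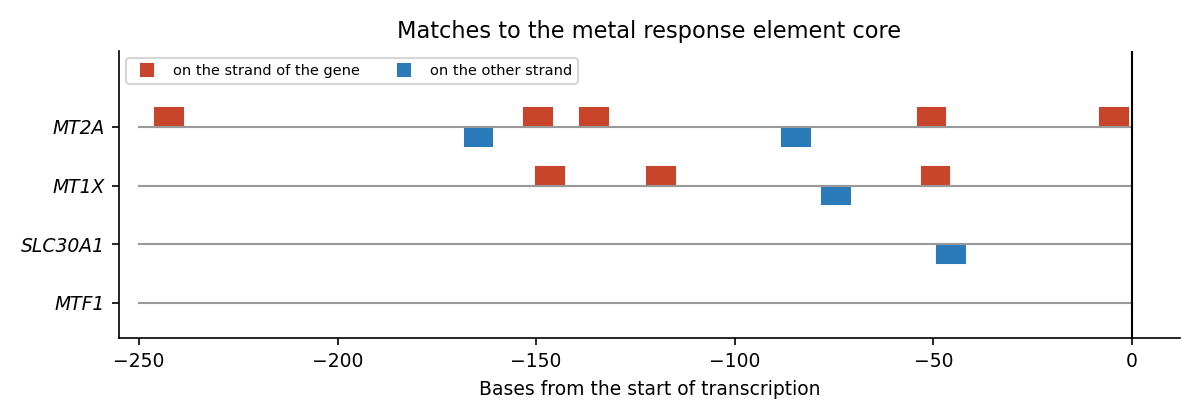
Positions of the metal response element core in the 250 bases before the start of transcription of MT2A, MT1X, SLC30A1 and MTF1. The x axis is the distance from the start in bases, each box is a 7-base match, and its colour and side of the line give its strand. MT2A carries 7 boxes, MT1X carries 4, SLC30A1 carries 1 and MTF1 carries 0.

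Depth differed between the groups. The summed counts ranged from 13615944 to 24110439 per library, and the 100 most abundant genes made up 15.2% to 15.4% of each library at pH 7.4 and 24.1% to 24.8% of each acidosis library. Levels are given as CPM, the count scaled to a library of fixed size, after TMM scaling, which multiplied the totals by 1.17 to 1.21 in control and SRPIN340 libraries and by 0.782 to 0.800 in acidosis libraries. Scaling by total count only shifted acidosis against control as a whole, to a median log2 fold change of -0.63 in place of -0.05. The acidosis differences of the detected genes of the set are therefore given on both scales. For the gene lists further below, the counts of calls in acidosis against control are given on both scales. Values of individual genes in those lists, and all marker differences, are given with TMM scaling only. Their direction or call can depend on the scaling. A gene passed the test at an adjusted p under 0.05 (edgeR quasi-likelihood test, Benjamini-Hochberg over the 14863 genes tested) and was called when its absolute log2 fold change also exceeded 1. The p-values measure the spread between these 7 samples, described as separate biological repeats of 1 cell line. In bulk RNA, fewer cells that express a gene and less RNA of it per cell cannot be told apart.

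Of the 8 genes, 5 were detected. MT1E, MT1G and MT1M were listed at 0 in all 7 libraries, where a count of 0 allows a level of up to 0.105 to 0.275 CPM (3 counts, counting error only). Of 6 other metallothionein genes looked up, MT1A, MT1B, MT1H, MT1HL1 and MT4 were also at 0 throughout, and MT3 had at most 1 count in a library. In the stretch between MT2A and MT1X, 6 of the 7 metallothionein genes were thus at 0, with MT1F the exception. The detected metallothionein RNA thus came from MT2A and MT1X and, at a far lower level, from MT1F.

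Compared per length, as CPM per kilobase of canonical transcript, MT2A and MT1X were the most abundant of the 5 in every group. In control cells MT2A stood at 18.9 ± 4.04 CPM per kilobase, MT1X at 15.8 ± 0.769, SLC30A1 at 8.19 ± 1.57, MTF1 at 4.74 ± 0.103 and MT1F at 2.63 ± 0.248 (mean ± SD, n = 2). MT2A and MT1X overlapped between these libraries, and the other neighbours in the order did not. Full lengths were used, such as 425 bases for MT1F and 7937 for MTF1, with no correction for fragment length. The order between short and long transcripts is therefore approximate. With SRPIN340 the order of the leading pair was turned, MT1X at 22.7 ± 2.01 and MT2A at 15.7 ± 1.32 CPM per kilobase (n = 2), with no overlap. In acidosis MT2A stood at 24.5 ± 4.34 and MT1X at 18.9 ± 1.83 CPM per kilobase (n = 3), the lowest MT2A library lying at 20.4 and the highest MT1X library at 20.3. The order of the regulator and the exporter was also turned in acidosis, with MTF1 at 7.65 ± 1.15 and SLC30A1 at 5.12 ± 0.398 CPM per kilobase (n = 3).

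MTF1, the regulator, was higher under acidosis with TMM scaling. Its level was 38.2 and 37.1 CPM in the control libraries, 36.1 and 38.6 CPM with SRPIN340, and 70.8, 52.9 and 58.5 CPM in acidosis. All 3 acidosis libraries lay above all 4 libraries at pH 7.4, whose levels overlapped between control and SRPIN340. Against control the log2 fold change was 0.69 (SE 0.126, adjusted p = 0.000822 by the edgeR test), a 1.62-fold difference, but it was 0.12 with an adjusted p of 0.409 when libraries were scaled by total count only. The SRPIN340 difference from control was -0.01 (95% interval -0.32 to 0.29, adjusted p = 0.982), so MTF1 passed the test with acidosis and missed it with the kinase inhibitor. The direct comparison of acidosis with SRPIN340 gave a log2 fold change of 0.70 (SE 0.127, adjusted p = 0.000740), again reduced to 0.09 (adjusted p = 0.531) by total count scaling.

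SLC30A1, the zinc exporter, moved the other way. It stood at 54.8 and 41.7 CPM in control, 47.6 and 56.2 CPM with SRPIN340, and 27.7, 32.4 and 30.4 CPM in acidosis. The highest acidosis library was below the lowest library at pH 7.4, and the control and SRPIN340 libraries overlapped. SLC30A1 fell in acidosis against control with a log2 fold change of -0.68 (SE 0.139, adjusted p = 0.00171 by the edgeR test), a level 1.60-fold lower, and with total count scaling the change was -1.25, which met the call. Against SRPIN340 the acidosis log2 fold change was -0.79 (SE 0.139, adjusted p = 0.000677), and -1.40 with total count scaling, which also met the call. SRPIN340 against control gave 0.10 (95% interval -0.23 to 0.44, adjusted p = 0.785). Leaving out any 1 library kept SLC30A1 past the test in both acidosis comparisons.

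The ratio of MTF1 to SLC30A1 within a library does not depend on the scaling. It was 0.697 and 0.888 in control, 0.759 and 0.686 with SRPIN340, and 2.55, 1.63 and 1.92 in acidosis. Every acidosis library had more MTF1 than SLC30A1 counts and every library at pH 7.4 had fewer. This ratio was chosen after its values were seen and carries no test.

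**Figure D2:**
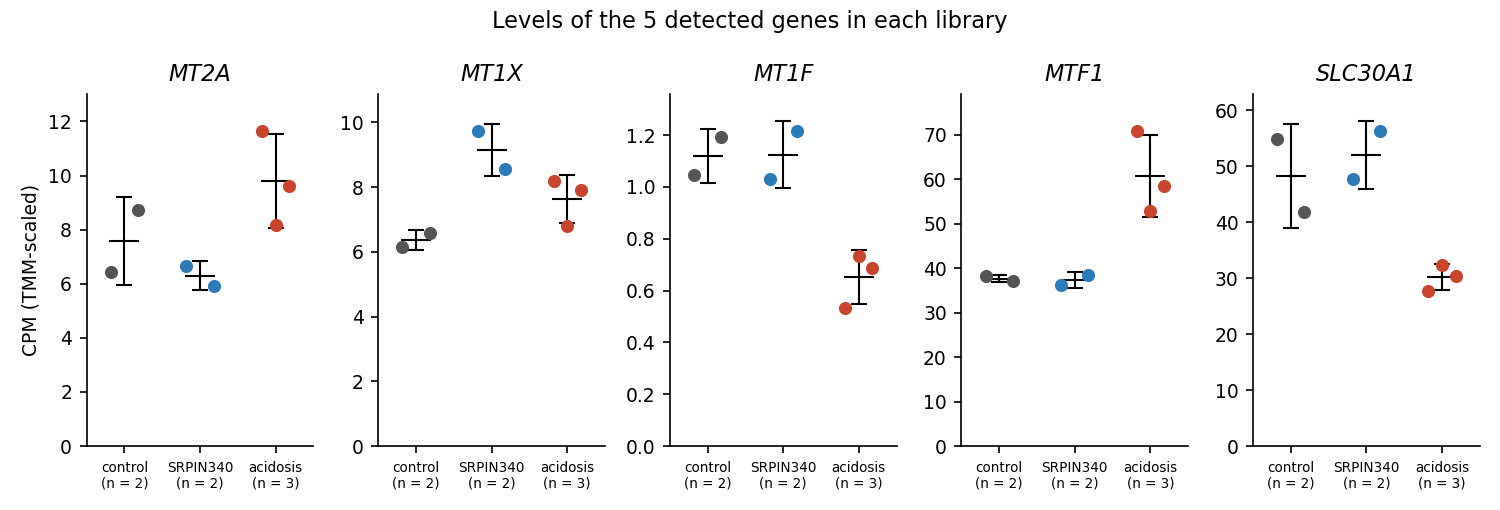
Level of each of the 5 detected genes in every library, as TMM-scaled CPM on an axis that starts at 0. Points are libraries, the bar is the group mean and the whiskers its SD (n = 2, 2 and 3). The acidosis points for MTF1 lie at 52.9 to 70.8 CPM, above all others, and those for SLC30A1 at 27.7 to 32.4 CPM, below all others.

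MT2A, a zinc- and glucocorticoid-inducible metallothionein, did not pass the test against control in either treatment. Its level was 6.45 and 8.74 CPM in control, 6.67 and 5.92 CPM with SRPIN340, and 11.6, 8.17 and 9.63 CPM in acidosis. Acidosis overlapped control and lay above both SRPIN340 libraries. The acidosis log2 fold change against control was 0.38 (SE 0.212, adjusted p = 0.143), or -0.20 with total count scaling, so neither its sign nor a difference was established. Against SRPIN340, MT2A was higher in acidosis by 0.65 on the log2 scale (SE 0.216, adjusted p = 0.0227 by the edgeR test), a difference that was 0.03 with total count scaling (adjusted p = 0.899). It also missed the threshold without SRPIN340 replicate 1 (adjusted p = 0.0666), without SRPIN340 replicate 2 (adjusted p = 0.139) and without acidosis replicate 1 (adjusted p = 0.0756). SRPIN340 against control gave -0.27 for MT2A (95% interval -0.78 to 0.24, adjusted p = 0.605).

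MT1X, the other abundant metallothionein, was highest with SRPIN340. The control libraries held 6.16 and 6.60 CPM, the SRPIN340 libraries 9.73 and 8.58 CPM, and the acidosis libraries 8.19, 6.79 and 7.91 CPM. The 3 groups did not overlap, with control lowest and acidosis between them. The SRPIN340 log2 fold change against control was 0.52 (95% interval 0.11 to 0.93), a 1.43-fold difference that did not pass after adjustment over all genes (adjusted p = 0.182). In acidosis against control it was 0.26 (SE 0.175, adjusted p = 0.210), turning to -0.31 with total count scaling. Against SRPIN340, acidosis gave -0.26 (SE 0.171, adjusted p = 0.208), and -0.87 with total count scaling (adjusted p = 0.00108).

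MT1F was the least abundant of the detected genes. Its counts were 29 and 34 in control, 28 and 32 with SRPIN340, and 9, 8 and 8 in acidosis. On the scaled level that is 1.04 and 1.19 CPM in control, 1.03 and 1.21 CPM with SRPIN340, and 0.534, 0.734 and 0.688 CPM in acidosis. The acidosis libraries lay below the rest, but the log2 fold change of -0.79 against control had a standard error of 0.436 and did not pass (adjusted p = 0.136), while with total count scaling it was -1.36 (adjusted p = 0.0173). Against SRPIN340 the acidosis value for MT1F was -0.79 (SE 0.437, adjusted p = 0.133), and -1.40 with total count scaling (adjusted p = 0.0146). The SRPIN340 log2 fold change against control was 0.0049 for MT1F, with a 95% interval of -0.99 to 1.00 that is too wide to call the groups equal.

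The level of the 6 metallothioneins was also summed. The sum was 13.6 and 16.5 CPM in control, 17.4 and 15.7 CPM with SRPIN340, and 20.4, 15.7 and 18.2 CPM in acidosis. The group means of 15.1 ± 2.04, 16.6 ± 1.21 and 18.1 ± 2.34 CPM (SD, n = 2, 2 and 3) overlapped in their libraries, and the ratio of acidosis to control was 0.26 on the log2 scale with TMM and -0.31 with total count scaling. No test was made of the sum.

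The makeup of that sum differed by group. MT1X over MT2A, a ratio that is free of the library scaling, was 0.955 and 0.755 in control, 1.46 and 1.45 with SRPIN340, and 0.704, 0.831 and 0.821 in acidosis. Both SRPIN340 libraries thus held more MT1X than MT2A, and the 5 other libraries held less. MT1F made up 7.65% and 7.22% of the sum in control, 5.92% and 7.73% with SRPIN340, and 2.62%, 4.68% and 3.77% in acidosis. These ratios were singled out after the values were seen, carry no test, and rest on the reads being split correctly between sequences that share words as given above.

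**Figure D3:**
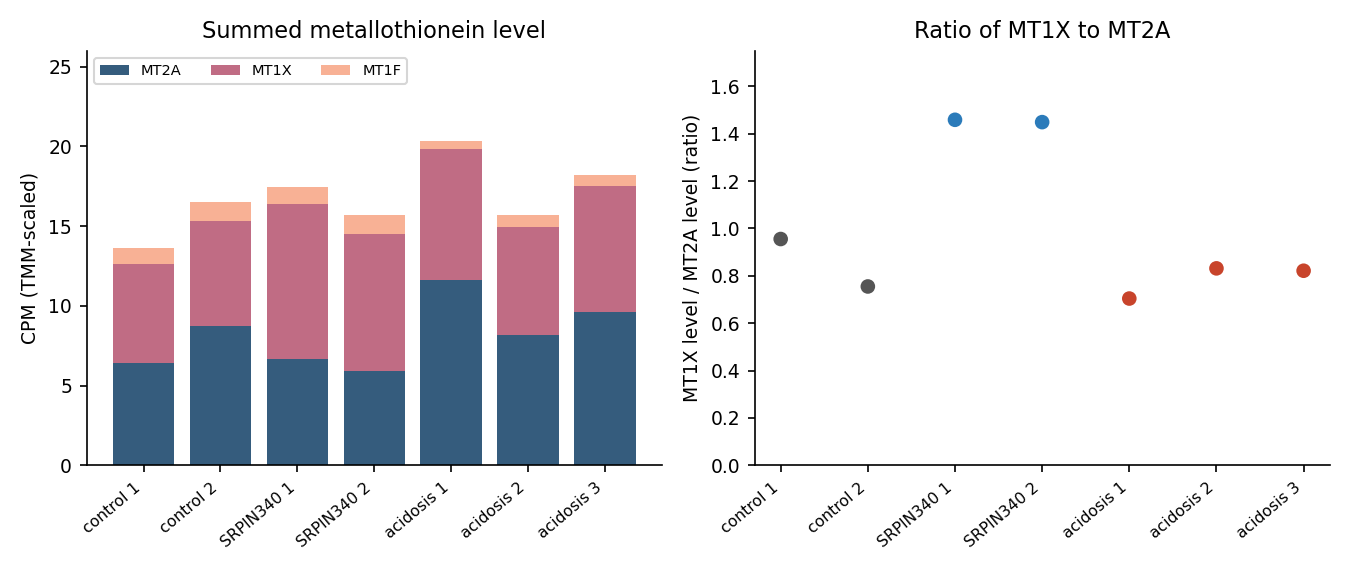
Left, the summed metallothionein level per library in TMM-scaled CPM, stacked by MT2A, MT1X and MT1F (the 3 other metallothioneins of the set are at 0). Right, the ratio of the MT1X to the MT2A level in each library. The stacks run from 13.6 to 20.4 CPM, and the ratio is 1.45 to 1.46 in the SRPIN340 libraries and 0.704 to 0.955 in the others.

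Counted together, 0 of the 5 tested genes were called in any of the 3 comparisons by edgeR with TMM scaling or by DESeq2. In SRPIN340 against control DESeq2 gave no adjusted p for MT1F, MT1X and MT2A, so its 0 there covers MTF1 and SLC30A1 only. Total count scaling called MT1F and SLC30A1 lower in both acidosis comparisons. On that scale 5202 of all 14863 genes were called lower against control and 5505 against SRPIN340. With TMM scaling, the background in acidosis against control was 14.4% of the 14863 genes called higher and 19.1% called lower. Of the 5 tested genes 1 passed higher (background 32.5%) and 1 passed lower (background 34.2%), and 2 had an unadjusted p under 0.05. SRPIN340 against control had 0.128% called higher, 0.195% called lower, 0.767% passed higher and 1.53% passed lower over all genes. No gene of the set passed there, and MT1X alone had an unadjusted p under 0.05. For acidosis against SRPIN340 the background was 14.9% called higher, 19.7% called lower, 32.8% passed higher and 35.0% passed lower. There 2 of the set passed higher and 1 passed lower, and the same 3 genes had an unadjusted p under 0.05. Read against the background shares, 1 or 2 of 5 is no result about the set. The share of all genes with an unadjusted p under 0.05 was not counted, so the unadjusted counts have no background beside them. The comparisons share their samples in pairs, so their values are set side by side and are not independent.

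**Figure D4:**
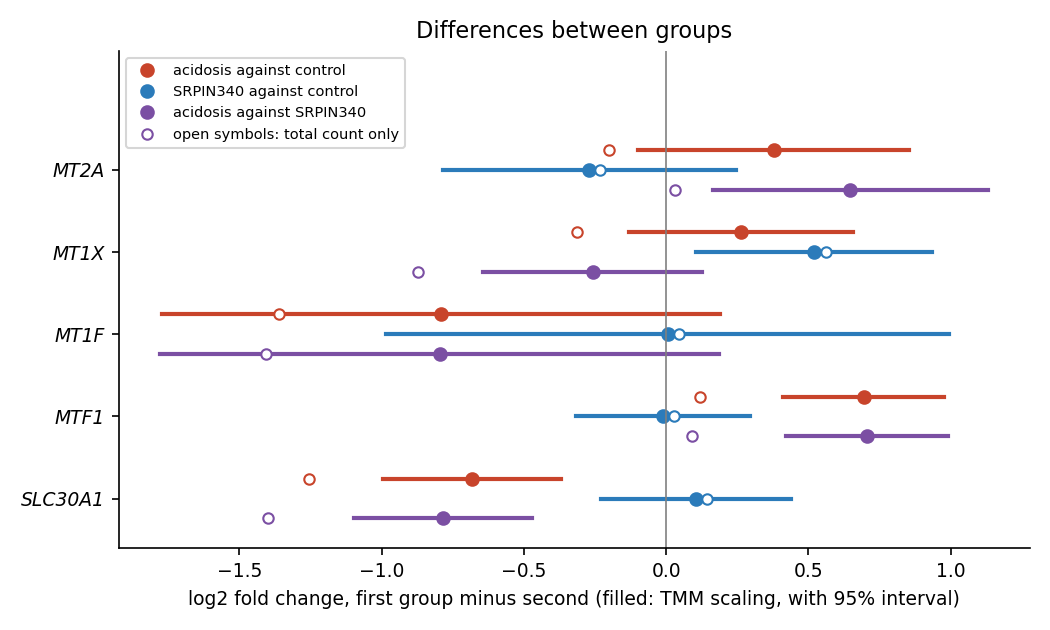
Log2 fold change of each detected gene in the 3 comparisons, first group minus second. Filled points with bars are the TMM-scaled estimate with its 95% interval, and open points are the estimate with total count scaling only. For MTF1 in acidosis against control the filled point is at 0.69 and the open point at 0.12, and for SLC30A1 they are at -0.68 and -1.25.

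The other zinc exporters of the SLC30 family, most of which load zinc into the Golgi, vesicles or the secretory pathway, were mostly lower in acidosis. This list and those below were chosen with earlier results of these data known, so their shares beside the background carry no test. Of 9 genes 7 were tested, and 3 were called lower (background 19.1%) and 0 higher (background 14.4%) against control. By adjusted p 5 passed lower (background 34.2%) and 1 higher (background 32.5%). SLC30A6, a Golgi transporter that works with SLC30A5, fell from 47.3 to 8.88 CPM (log2 fold change -2.41), SLC30A10, known for exporting manganese, from 4.98 to 1.70 CPM (-1.54), and SLC30A3, the vesicular zinc loader of neurons, from 8.05 to 3.33 CPM (-1.26). SLC30A9 was the member that passed higher, at 160 against 94.4 CPM (0.76). The median over the 7 tested genes was -0.92, beside -0.05 over all genes. With total count scaling 4 were called lower, as were 5202 of all 14863 genes. Against SRPIN340 the same 3 genes and SLC30A5 (-1.09) were called lower (background 19.7%), and SRPIN340 against control called 0 of 7 in either direction.

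The SLC39 zinc importers, which bring zinc into the cytosol, were split. Of 14 genes 11 were tested in acidosis against control, with 3 called higher (background 14.4%) and 1 lower (background 19.1%). By adjusted p 7 passed higher (background 32.5%) and 3 lower (background 34.2%). SLC39A10, a plasma membrane importer, rose from 69.3 to 213 CPM (log2 fold change 1.62), SLC39A1, another plasma membrane importer, from 67.6 to 150 CPM (1.14), and SLC39A4, the importer mutated in acrodermatitis enteropathica, from 3.12 to 6.69 CPM (1.10). SLC39A11 fell from 18.9 to 2.68 CPM (-2.82). With total count scaling the calls were 1 higher and 3 lower, and SLC39A4 no longer passed, nor did it without control replicate 1 (adjusted p = 0.0627 by the edgeR test). Over all 14863 genes, total count scaling called 815 higher and 5202 lower. With TMM scaling the median of the 11 genes was 0.25. SRPIN340 against control called 0 of 11.

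**Figure D5:**
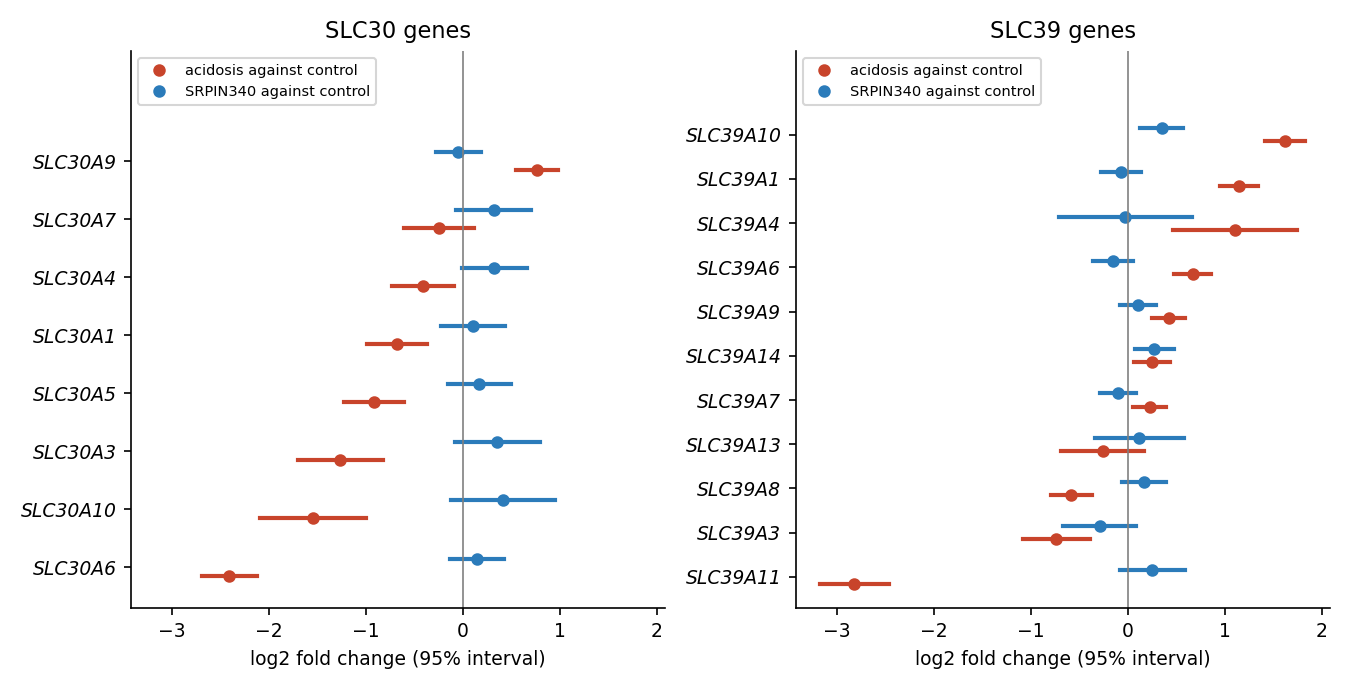
Log2 fold change with 95% interval for the tested SLC30 genes, SLC30A1 included, and the tested SLC39 genes, ordered by acidosis against control (red), with SRPIN340 against control beside it (blue), both with TMM scaling. The red points run from -2.41 for SLC30A6 to 0.76 for SLC30A9 and from -2.82 for SLC39A11 to 1.62 for SLC39A10, and the blue points run from -0.29 for SLC39A3 to 0.41 for SLC30A10.

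Genes that metals or oxidants induce beside the metallothioneins were mostly lower in acidosis. Of 9 tested, 1 was called higher (background 14.4%) and 5 lower (background 19.1%) against control, and the median was -1.17. The iron exporter SLC40A1 fell by 2.63 on the log2 scale, GCLM, a subunit of the glutathione-making ligase, fell by 1.39, SLC7A11, the cystine importer, fell by 1.29, and SRXN1, which repairs oxidised peroxiredoxins, fell by 1.19. HMOX1, the haem oxygenase that responds to many metals, passed lower without being called (18.7 to 10.9 CPM, log2 fold change -0.78). SELENOH was the gene called higher (30.1 to 66.6 CPM, log2 fold change 1.15), and TXNRD1 did not pass (log2 fold change 0.0027). Copper handling genes went both ways, 4 called higher and 2 lower of 12 beside the same backgrounds, with the copper chaperone COX17 at 1.50, the importer SLC31A1 at 1.27, SCO2 at -1.48 and SLC31A2 at -1.31. With total count scaling the metal and oxidant list had 0 higher and 7 lower calls and the copper list 0 higher and 3 lower. On that scale 815 of all 14863 genes were called higher and 5202 lower, more lower calls than with TMM. SRPIN340 against control called 0 genes of either list.

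Glucocorticoid-inducible genes were mostly higher in acidosis, where MT2A did not pass. Of 8 tested, 6 were called higher (background 14.4%) and 1 lower (background 19.1%) against control, or 5 and 1 with total count scaling. With TMM, DUSP1 had a log2 fold change of 6.01, PER1 4.37, KLF9 2.83, ERRFI1 2.78, SGK1 1.93 and TSC22D3 1.31. ZBTB16 passed higher without being called (0.95), and FKBP5 was called lower (-1.59). The list was chosen with earlier results of these data known, so its share beside the background carries no test. Total count scaling called 815 higher and 5202 lower over all 14863 genes. Several of the glucocorticoid-inducible genes also answer to other stimuli. With SRPIN340 against control 0 of 8 were called. In acidosis against SRPIN340 the background was 14.9% called higher and 19.7% called lower. There the calls were 3 higher and 1 lower of 11 SLC39 genes and 1 higher and 5 lower of 9 metal and oxidant genes. They were 4 higher and 2 lower of 12 copper genes and 7 higher and 1 lower of 8 glucocorticoid-inducible genes.

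The label HEK-293 was checked on 7 markers, all of them detected. Their summed level was 1411 to 1476 CPM in the libraries at pH 7.4 and 3499 to 3515 CPM in acidosis. Most of that sum was VIM, with a mean of 867 CPM in control and 2714 CPM in acidosis. In acidosis against control 2 of the 7 markers were called higher (VIM and NEFM, background 14.4%) and 1 lower (PAX2, background 19.1%). By adjusted p 4 passed higher (background 32.5%) and 2 lower (background 34.2%). Of 6 markers of other cell types, COL1A1 stood at 30.8 CPM in control and 62.3 CPM in acidosis, and PTPRC, PECAM1, ALB, HBB and ACTA1 were below 1 CPM in every library. The summed level of these 6, nearly all of it COL1A1, was 29.0 to 38.9 CPM at pH 7.4 and 59.5 to 67.4 CPM in acidosis. Against control 3 of the 4 tested were called higher (background 14.4%), namely COL1A1, ACTA1 and PTPRC. The last 2 rest on few counts, ACTA1 on 4 to 8 in control and 8 to 13 in acidosis, PTPRC on 1 to 8 and 7 to 12. The part of these marker differences in the values of MTF1 and SLC30A1 was not tested.

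The genes whose log2 CPM was most like the summed metallothionein level over the 7 libraries were DGCR6, TMEM141, PPP2R3B, RNF126 and ANO8, with Pearson r from 0.971 to 0.957 among 10117 genes of at least 10 CPM. For SLC30A1 they were UHMK1, SS18, RBAK, SCOC and LRCH2, with r from 0.996 to 0.993. The SLC30A1 values fall into an acidosis cluster and a pH 7.4 cluster, and all points share the library scaling, so these r values describe likeness of pattern only and carry no p. The leading match to SLC30A1, UHMK1, a serine/threonine kinase, had 145, 154 and 94.7 CPM in control, SRPIN340 and acidosis.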

How the data were processed

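Poly(A) RNA of 7 HEK-293 samples was sequenced as read pairs. The authors trimmed reads with Trimmomatic 0.39 and Trim Galore 0.6.6, ran Salmon 1.5.1 in quasi-mapping mode on GENCODE transcripts (GRCh38.p13) and collapsed its output by gene with tximport, and deposited a table of estimated counts. The tximport option, and how technical replicates were joined, are not given in the sources used here. Estimated counts were rounded, and 19977 of 19978 gene IDs matched a symbol.

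Counts were tested with edgeR 4.0.16 (R 4.3.3) by the quasi-likelihood test, with TMM, filterByExpr, all 7 samples in 1 fit with a mean per group, and Benjamini-Hochberg adjustment. DESeq2 1.42.0, RLE and total count scaling, other filters, fits of 2 groups, the replicate block and leaving out each library were the alternatives. Functions were tested on simulated data. Total counts of 13615944 to 24110439 limit the precision. The floor for a count of 0 covers counting error only, and the 95% intervals come from the edgeR fit and include the spread between samples. Replicates of a group differed beyond sampling noise. Gene positions and coding sequences came from GENCODE (GRCh38) and promoters from RefSeq; Python 3.11.15 and matplotlib 3.10.9 were used.

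All 8 genes were named, with up to 4 called genes of each list with the largest change, and the 5 genes most like the summed metallothionein level and SLC30A1. SLC30A9, HMOX1, SELENOH, TXNRD1, FKBP5, SGK1, TSC22D3, ZBTB16 and the markers of other cell types were named beside that rule. The members and lists were chosen with earlier results of these data known.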

Additional observations from a re-analysis of the deposited data

How the results depend on the processing

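The count of called genes in the set was 0 in each comparison and stayed 0 with DESeq2, RLE, both filters, fits of 2 groups only and each library left out. For DESeq2 in SRPIN340 against control this covers MTF1 and SLC30A1 only, since MT1F, MT1X and MT2A had no adjusted p there. With total count scaling 2 genes, MT1F and SLC30A1, were called lower in acidosis against control and 2 against SRPIN340. Without the fold limit the counts were 1 higher and 1 lower against control, and 2 higher and 1 lower against SRPIN340. The replicate block left 0 called in each comparison, and the only pass it ended was MT2A in acidosis against SRPIN340 (adjusted p = 0.0555 by edgeR). The numbers were not found to pair the samples: correlations of same-numbered samples ran from -0.146 to 0.0715.

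Total count scaling also turned the signs of MT1X (-0.31) and MT2A (-0.20) in acidosis against control and of MTF1 (0.029) in SRPIN340 against control. The summed metallothionein log2 ratio became -0.31 against control and -0.49 against SRPIN340. Over all genes it moved the calls in acidosis against control from 2145 higher and 2840 lower to 815 and 5202. In SRPIN340 against control, where no gene of the set passed, the small differences changed sign for MT1F with RLE (-0.00126). With 1 library left out they ran from -0.116 to 0.118 for MT1F, from -0.058 to 0.036 for MTF1 and from -0.082 to 0.315 for SLC30A1. SRPIN340 calls over all genes were 19 higher and 29 lower, against 5 and 22 with the replicate block. The 3 metallothioneins at 0 and MT1F at 8 to 34 counts are limited by depth.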
